A study of Homo sapiens with 24 samples.

Results

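The genes described here are DDIT4, the 3 sestrin genes SESN1, SESN2 and SESN3, and TSC22D3, 5 of the 58266 gene symbols in the deposited tables. They were chosen by name as stress-induced inhibitors of the kinase complex mTORC1 and, for TSC22D3, a stress gene grouped with them. Their FPKM in these same libraries was already known, so their levels and differences are described and no p-value is attached to them. All 5 passed the filter on low values (an FPKM of 1 or more in 3 or more libraries), as did 15828 genes in all.

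mTORC1 is the protein kinase complex that promotes protein synthesis and growth when nutrients and growth factors are at hand. DDIT4 (also called REDD1) is induced by hypoxia, energy stress and glucocorticoids, and it restrains mTORC1 through the TSC complex, which switches off the small GTPase RHEB. The sestrins act on the amino acid branch: they bind GATOR2, and SESN2 releases it when it binds leucine, so that RAG GTPases can bring mTORC1 to the lysosome. SESN1 and SESN2 are known p53 targets, SESN2 is also a target of ATF4, and SESN3 is a target of FOXO factors. TSC22D3 (also called GILZ) encodes a leucine zipper protein induced by glucocorticoids and by FOXO3. It is not itself an inhibitor of mTORC1 and joins the set as a stress gene that is often induced with DDIT4.

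The libraries came from HEK293A, an adherent human embryonic kidney line, kept in DMEM with 10% FBS on hydrogels of 1 kPa (soft) or 40 kPa (stiff) that carried fibronectin. On each gel stood wild type cells (WT) and lines labelled as knockouts of RAP2A, RAP2B and RAP2C (RAP2 tKO), of LATS1 and LATS2 (LATS dKO), and of YAP and TAZ (YAP/TAZ dKO), with 3 biological replicates in each of the 8 groups. RAP2 GTPases signal to the Hippo kinases LATS1 and LATS2, which restrain the transcriptional coactivators YAP and TAZ (gene WWTR1), and the study asked how gene expression responds to the stiffness of the matrix. The editing method and the number of clones behind each line were not given in the sources used here. A difference between lines therefore cannot be told apart from a difference between clones. In such bulk RNA, fewer cells with a transcript and less of it per cell cannot be told apart either. A p-value here sets a difference against the spread between libraries within groups, pooled over the 8 groups.

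The depth was 19.0 to 41.3 M fragments a library. The epithelial and mesenchymal genes that mark this line were present in all 24 libraries (KRT8 at 28.0 to 536 FPKM, KRT18 at 45.8 to 451, VIM at 134 to 292), and of the markers of other cells PTPRC reached at most 0.0178 FPKM and ALB 0.983, while CD68, COL1A1 and ACTA2 lay between 2.07 and 7.87. Mean YAP1 was 6.06 and 6.20 FPKM in YAP/TAZ dKO against 30.9 to 32.8 in the other groups, WWTR1 was 10.0 and 10.7 against 21.9 to 29.1, and LATS1 was 5.18 and 5.69 in LATS dKO against 12.3 to 14.3. LATS2 was not lower in LATS dKO (3.19 and 3.40 FPKM, against 2.15 and 2.78 in WT). In RAP2 tKO, RAP2A was at 6.35 and 6.79 FPKM against 7.92 and 8.78 in WT, while RAP2B and RAP2C were no lower than in WT. Transcript level alone does not check an edit that leaves the transcript in place. In 2 libraries, replicate 3 of RAP2 tKO and replicate 1 of LATS dKO, both from stiff gel, the difference from the 1 kPa mean of the line followed the GC content of genes (rank correlation across genes -0.637 and -0.617, against -0.353 to 0.287 in the other libraries). DDIT4 has a transcript GC content of 62.98%, SESN2 of 59.5% and TSC22D3 of 57.4%, against 46.3% for SESN3 and 40.6% for SESN1. Some results that rest on these 2 libraries are given with and without them, or after a correction for GC content. Others, the likeness between genes among them, are given only with them.

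The promoters of these genes were searched for short motifs. The RefSeq windows (GRCh38.p14, a different build from the hg19 of the expression tables) run from 250 bases before to 50 after a transcript start, and the 5 genes have 10 such windows. Shown are 4: those of DDIT4 and SESN2, whose levels followed each other most closely over the 8 groups, and the windows of SESN1 and TSC22D3 that held the most matches. Capitals mark matches, on either strand, to 6 motifs that were searched: the CARE element bound by ATF4 (TGATGNAA), the FOXO site (TGTTTAC), the hypoxia response element (ACGTG), a glucocorticoid receptor half-site (TGTTCT), the TEAD site (GGAATG) and a CRE half-site (TGACG).
DDIT4 (chr10:72273674-72273973, plus strand): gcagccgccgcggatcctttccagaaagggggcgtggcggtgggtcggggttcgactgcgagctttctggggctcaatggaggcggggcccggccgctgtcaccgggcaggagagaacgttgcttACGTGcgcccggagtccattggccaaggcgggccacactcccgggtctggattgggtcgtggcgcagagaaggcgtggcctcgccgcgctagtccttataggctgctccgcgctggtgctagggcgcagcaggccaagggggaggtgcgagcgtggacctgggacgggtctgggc
SESN2 (chr1:28259268-28259567, plus strand): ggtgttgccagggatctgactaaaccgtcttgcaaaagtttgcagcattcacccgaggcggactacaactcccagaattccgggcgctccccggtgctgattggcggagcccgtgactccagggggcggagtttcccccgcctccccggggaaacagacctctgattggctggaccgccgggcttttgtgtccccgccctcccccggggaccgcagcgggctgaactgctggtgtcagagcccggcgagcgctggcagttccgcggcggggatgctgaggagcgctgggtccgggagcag
SESN1, window 2 of 3 (chr6:109009503-109009802, minus strand): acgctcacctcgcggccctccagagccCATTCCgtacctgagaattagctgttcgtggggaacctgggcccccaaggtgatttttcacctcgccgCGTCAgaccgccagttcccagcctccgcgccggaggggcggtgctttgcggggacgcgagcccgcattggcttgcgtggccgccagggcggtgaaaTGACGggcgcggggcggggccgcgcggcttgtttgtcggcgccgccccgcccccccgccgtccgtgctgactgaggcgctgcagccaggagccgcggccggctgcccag
TSC22D3, window 3 of 4 (chrX:107717013-107717312, minus strand): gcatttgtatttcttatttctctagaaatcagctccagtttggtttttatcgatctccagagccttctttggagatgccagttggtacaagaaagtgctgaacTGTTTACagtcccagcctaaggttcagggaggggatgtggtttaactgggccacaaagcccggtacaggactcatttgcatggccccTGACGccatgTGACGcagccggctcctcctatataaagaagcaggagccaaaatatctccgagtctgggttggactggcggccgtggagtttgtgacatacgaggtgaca

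The DDIT4 window held 1 match to the hypoxia response element, at bases 126 to 130 of the window, a motif found in 21.4% of the 35116 promoter windows searched. That of SESN2 held no match to any of the 6, nor did that of SESN3. In SESN1, window 2 held a TEAD site on the reverse strand at bases 28 to 33 (14.03% of all windows hold one) and CRE half-sites at 96 to 100 and 192 to 196 (24.6%). In TSC22D3, window 3 held a FOXO site at bases 104 to 110 (3.42%) and CRE half-sites at 191 to 195 and 201 to 205, window 2 a CRE half-site at 128 to 132 and window 4 one at 250 to 254. The CARE element (3.62%) and the glucocorticoid half-site (14.8%) were in none of the 10 windows. These are matches of letters in one short window and say nothing of whether a factor binds there.

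DDIT4 (ENSG00000168209.4, hg19 chr10:74033678-74035794) spanned the widest range of the 5 genes, 18.1-fold between its highest and lowest group means. Its highest levels were in YAP/TAZ dKO, where the 3 libraries on 1 kPa held 57.4, 59.7 and 62.2 FPKM and those on 40 kPa 53.8, 54.2 and 52.5. No other library exceeded 13.0 FPKM, so the YAP/TAZ dKO libraries stood apart from all 18 others on either gel. The WT libraries held 11.6, 9.48 and 9.81 FPKM on 1 kPa and 5.14, 4.57 and 4.71 on 40 kPa. In RAP2 tKO the values were 12.6, 13.0 and 10.6 on 1 kPa and 3.96, 3.52 and 2.55 on 40 kPa. Both lines thus had every soft library above every stiff one, with a wider gap in RAP2 tKO. The LATS dKO libraries were low on both gels, at 4.02, 4.25 and 4.58 FPKM on 1 kPa and 2.75, 3.93 and 3.22 on 40 kPa. Even there and in YAP/TAZ dKO the stiff libraries all lay below the soft ones, in LATS dKO narrowly (3.93 against 4.02 FPKM). How many of all genes had such gaps, between gels or between lines, was not counted. Nothing is therefore read from a lack of overlap, here or below. The ratio of stiff to soft means was 0.770 in LATS dKO and 0.895 in YAP/TAZ dKO, against 0.467 in WT. In FPKM, however, the fall in YAP/TAZ dKO (59.8 to 53.5) was no smaller than that in WT (10.3 to 4.81).

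**Figure D1:**
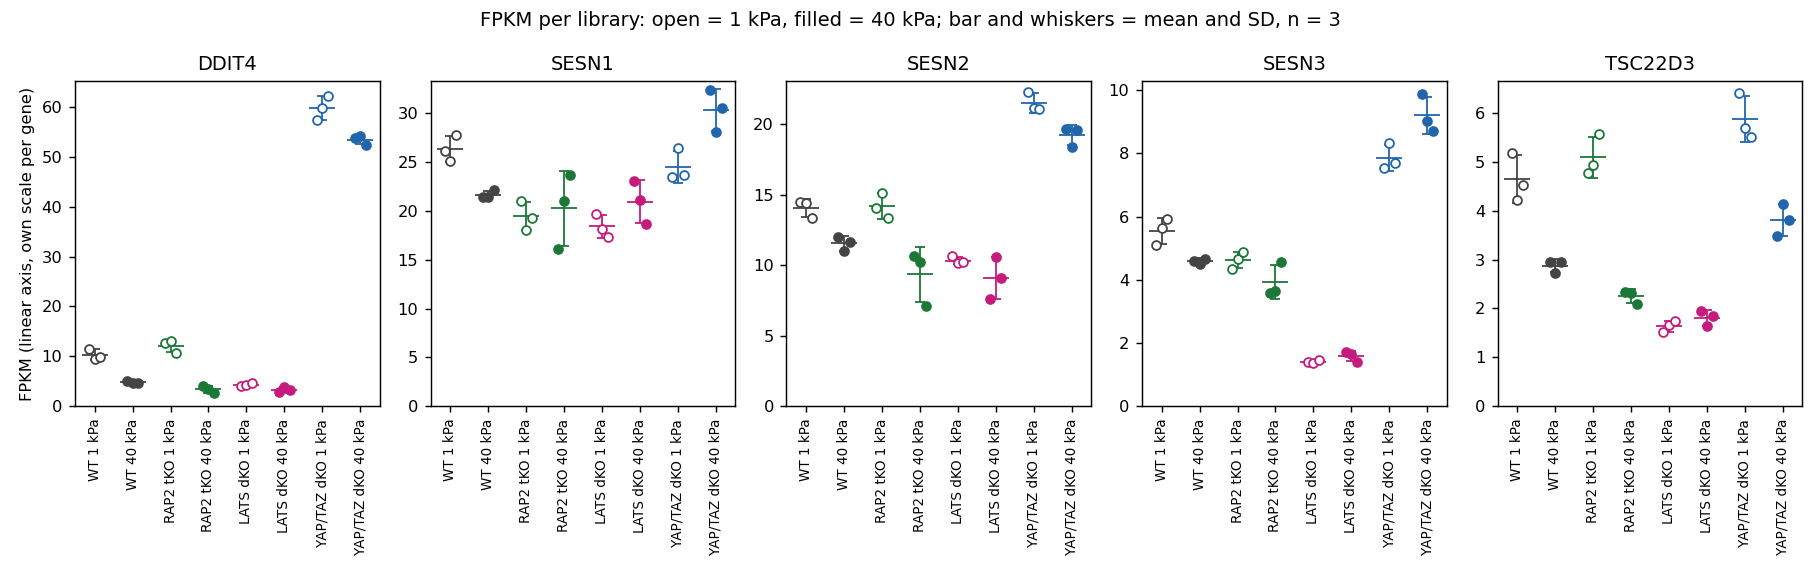
FPKM of the 5 genes in each library (linear axes from 0, a scale of its own for each gene), by genotype and gel, with open points for 1 kPa, filled points for 40 kPa, and the mean and SD of 3 libraries as bar and whiskers. DDIT4 lies above 52 FPKM in all 6 YAP/TAZ dKO libraries and at or below 13.0 in the others, while SESN3 and TSC22D3 are lowest in LATS dKO.

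Mean DDIT4 on stiff gel was 0.467 times the soft value in WT (4.81 ± 0.294 against 10.3 ± 1.11 FPKM, SD, n = 3), a difference of -0.95 ± 0.11 (SE) in log2(FPKM + 1). In RAP2 tKO the ratio was 0.277 (3.35 ± 0.720 against 12.1 ± 1.25 FPKM) and the log2 difference -1.60 ± 0.11. Without RAP2 tKO on 40 kPa replicate 3, the lowest of its group, that difference was -1.46, and after a correction for GC content it was -1.27. The log2 difference was -0.31 in LATS dKO (4.28 ± 0.283 on 1 kPa, 3.30 ± 0.591 on 40 kPa) and -0.16 in YAP/TAZ dKO (59.8 ± 2.43 and 53.5 ± 0.888), each with an SE of 0.11. Without both GC-skewed libraries the LATS dKO difference was -0.21. On this log scale, the response minus that of WT was -0.64 ± 0.16 in RAP2 tKO, 0.65 ± 0.16 in LATS dKO and 0.80 ± 0.16 in YAP/TAZ dKO.

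TSC22D3 (ENSG00000157514.16, hg19 chrX:106956451-107020572) was the other gene with clearly less transcript on stiff gel, and here YAP/TAZ dKO kept the difference. The WT libraries held 5.19, 4.22 and 4.52 FPKM on 1 kPa and 2.95, 2.72 and 2.95 on 40 kPa. In RAP2 tKO they were at 4.77, 4.93 and 5.57 on 1 kPa and at 2.34, 2.32 and 2.10 on 40 kPa. The YAP/TAZ dKO libraries held 6.41, 5.69 and 5.52 FPKM on soft and 3.49, 4.14 and 3.82 on stiff gel. In these 3 genotypes no stiff library reached a soft one. LATS dKO was the exception: its libraries, at 1.51, 1.65 and 1.74 FPKM on 1 kPa and 1.95, 1.63 and 1.85 on 40 kPa, overlapped and were the lowest of all. The log2 differences between gels were -0.54 in WT, -0.90 in RAP2 tKO and -0.51 in YAP/TAZ dKO, against 0.09 in LATS dKO, each with an SE of 0.08. After the correction for GC content the RAP2 tKO difference was -0.74. Precision was lowest for this gene, with deposited confidence intervals of 15.6% to 53.3% of the value to each side.

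SESN2 (ENSG00000130766.4, hg19 chr1:28586038-28609002), a leucine-binding sestrin, had the same order of the 8 group means as DDIT4 over a narrower range (2.37-fold). Its WT libraries held 14.5, 14.4 and 13.3 FPKM on 1 kPa and 11.98, 10.99 and 11.6 on 40 kPa. In RAP2 tKO the soft libraries were at 14.03, 15.1 and 13.4 FPKM and the stiff ones at 10.7, 10.2 and 7.13. Stiff libraries lay below soft ones in both, and the lowest of them was the GC-skewed one. YAP/TAZ dKO had the highest values, 22.3, 21.1 and 21.1 FPKM on soft and 19.6, 18.4 and 19.6 on stiff gel, again without overlap. The LATS dKO libraries, at 10.6, 10.1 and 10.2 on 1 kPa and 7.60, 10.5 and 9.09 on 40 kPa, overlapped. The log2 difference was -0.57 ± 0.11 in RAP2 tKO (-0.41 without both GC-skewed libraries), and between -0.16 and -0.27 in the other 3 genotypes.

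SESN3 (ENSG00000149212.11, hg19 chr11:94898677-94965705), a FOXO target, varied 6.53-fold between groups, and nearly all of that lay between genotypes. On 1 kPa the WT libraries held 5.09, 5.62 and 5.92 FPKM and on 40 kPa 4.60, 4.50 and 4.67. LATS dKO had 1.40, 1.36 and 1.48 FPKM on soft and 1.71, 1.66 and 1.40 on stiff gel. Every LATS dKO library was thus below every library of the other genotypes, the lowest of which was at 3.59 FPKM. In YAP/TAZ dKO the soft libraries were at 7.53, 8.34 and 7.70 FPKM and the stiff ones at 9.87, 9.04 and 8.70, above all others. RAP2 tKO was slightly under WT, at 4.35, 4.64 and 4.86 on soft and 3.59, 3.64 and 4.56 on stiff gel. The long RNA RP11-712B9.2, whose locus overlaps SESN3, was listed at 0.370 to 1.05 FPKM, and the share of SESN3 fragments that could belong to it is not known.

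SESN1 (ENSG00000080546.13, hg19 chr6:109307640-109416022) was the most even of the 5, with a 1.65-fold range over the group means. Its WT libraries held 26.2, 25.1 and 27.8 FPKM on 1 kPa and 21.4, 21.5 and 22.1 on 40 kPa, with no overlap. The YAP/TAZ dKO libraries were ordered the other way, at 23.5, 26.4 and 23.7 on soft and 32.4, 28.1 and 30.6 on stiff gel. RAP2 tKO (18.1 to 21.0 FPKM on soft, 16.1 to 23.7 on stiff gel) and LATS dKO (17.4 to 19.7 and 18.7 to 23.1) showed overlapping ranges. SESN3 had the same opposite order in WT and YAP/TAZ dKO. For SESN1 the log2 difference between gels was -0.27 ± 0.10 in WT and 0.30 ± 0.10 in YAP/TAZ dKO. For SESN3 it was -0.22 ± 0.08 and 0.20 ± 0.08.

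Per length and depth, SESN1 was the most abundant of the 5 in 6 of the 8 groups, and DDIT4 in both YAP/TAZ dKO groups. The order of the DDIT4 group means ran from LATS dKO on 40 kPa (3.30 FPKM) and RAP2 tKO on 40 kPa (3.35), which overlapped, through LATS dKO on 1 kPa (4.28) and WT on 40 kPa (4.81), whose libraries overlapped, to WT on 1 kPa (10.3) and RAP2 tKO on 1 kPa (12.1), which also overlapped, and then to YAP/TAZ dKO. Over the 8 group means of log2(FPKM + 1), DDIT4 and SESN2 had a Pearson r of 0.98 and the other pairs r of 0.53 to 0.85, and a YAP/TAZ dKO group was the highest for all 5. These points share libraries, so r describes their likeness only.

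In the limma test across all 15828 genes, 0.986% of genes were called (adjusted p below 0.05) between gels in WT, and 2 of the 5 genes were among them, DDIT4 and TSC22D3, both lower on 40 kPa. In RAP2 tKO, 3.87% of all genes were called and 3 of the 5, with SESN2 added to these. In LATS dKO 0.708% were called and none of the 5, and in YAP/TAZ dKO 0.347% and only TSC22D3. As these values chose the genes, nothing is read from the counts. The median log2 difference of the 5 was -0.27, -0.57, 0.09 and -0.16 in these genotypes, against -0.03, -0.04, -0.03 and -0.01 over all genes. When a fit used the 6 compared libraries alone, so that the spread came from these only, DDIT4 was still called in WT, but the calls of TSC22D3 in WT and YAP/TAZ dKO and all 3 in RAP2 tKO missed the threshold with the same differences, while calls over all genes went from 612 to 8 in RAP2 tKO.

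**Figure D2:**
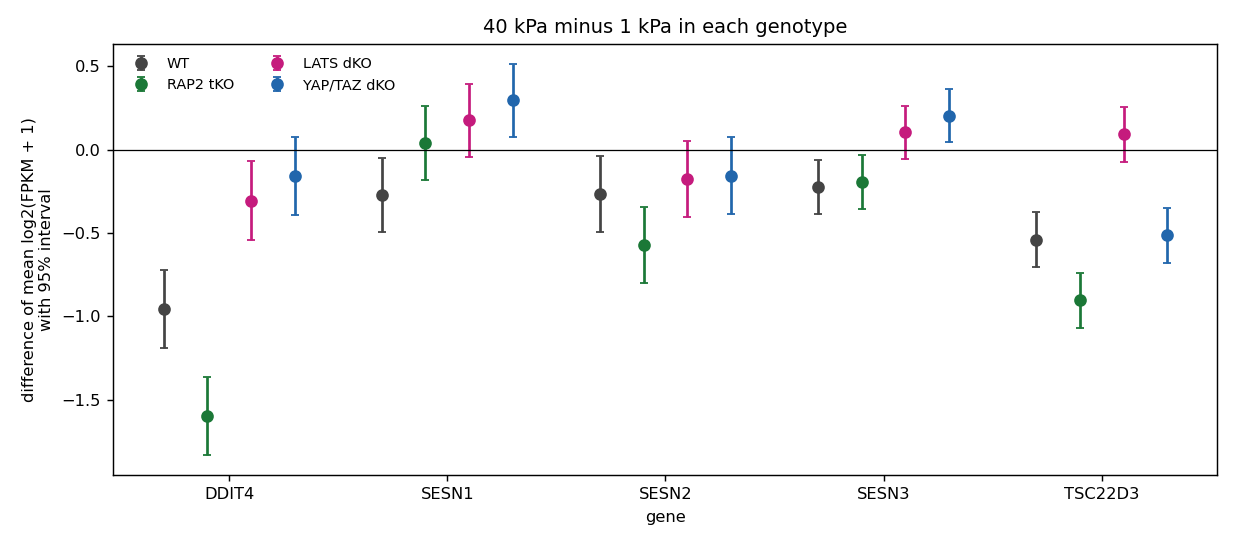
Difference of mean log2(FPKM + 1) between 40 and 1 kPa for each of the 5 genes (points), with 95% intervals from the limma fit, coloured by genotype; values below 0 mean less transcript on stiff gel. DDIT4 ranges from -1.60 in RAP2 tKO to -0.16 in YAP/TAZ dKO, and SESN1 and SESN3 lie below 0 in WT and above 0 in YAP/TAZ dKO.

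For the difference of stiffness responses from WT, 0.0505% of all genes were called in RAP2 tKO and none of the 5. In LATS dKO 0.0632% were called, TSC22D3 among them (0.63 ± 0.11 higher than in WT). In YAP/TAZ dKO 0.392% were called, DDIT4 among them (0.80 ± 0.16 higher). The TSC22D3 call was lost in 9 of the 12 fits that each left out 1 library of the 4 groups (0.56 to 0.66), and that of DDIT4 in 10 of 12 (0.72 to 0.83). The lowest of both, 0.56 and 0.72, came without WT on 1 kPa replicate 1, which has the highest DDIT4 and TSC22D3 of its group. These 3 differences share the WT libraries.

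Against WT on the same gel, DDIT4, SESN2, SESN3 and TSC22D3 were lower in LATS dKO and higher in YAP/TAZ dKO on both gels, and SESN1 was called on 1 gel in each line. On 1 kPa, LATS dKO had 3.93-fold less SESN3, 2.84-fold less TSC22D3 and 2.4-fold less DDIT4 (log2 differences -1.44 ± 0.08, -1.10 ± 0.08 and -1.09 ± 0.11), and SESN1 and SESN2 differed by -0.50 ± 0.10 and -0.41 ± 0.11. All 5 were called, where 21.8% of all genes were. On 40 kPa 22.3% of all genes were called and 4 of the 5, with SESN3 2.89-fold, TSC22D3 1.59-fold and DDIT4 1.46-fold lower. The log2 differences of TSC22D3 and DDIT4 on that gel were -0.46 and -0.44, and after the correction for GC content -0.35 and -0.33. SESN1 differed there by -0.05 ± 0.10. The SESN2 call on 40 kPa (-0.32 ± 0.11) was lost in 5 of 6 fits without 1 library, each WT one and LATS dKO replicates 1 and 3, with differences of -0.22 to -0.36.

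In YAP/TAZ dKO, DDIT4 was 5.81-fold higher than in WT on 1 kPa and 11.1-fold higher on 40 kPa (log2 differences 2.43 ± 0.11 and 3.23 ± 0.11). The wider gap on stiff gel goes with the lower WT level there (4.81 against 10.3 FPKM), while the YAP/TAZ dKO means were 53.5 and 59.8 FPKM. SESN2 was 1.53-fold and 1.66-fold higher, SESN3 1.42-fold and 2.00-fold, and TSC22D3 1.26-fold and 1.33-fold, with no overlap between the libraries of the lines. SESN1 overlapped with WT on soft gel (-0.10 ± 0.10) and was 1.40-fold higher on stiff gel (0.47 ± 0.10). On 1 kPa 4 of the 5 were called, where 37.9% of all genes were, and on 40 kPa all 5, where 37.7% were.

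RAP2 tKO differed less from WT. On 1 kPa SESN1 was lower (19.5 ± 1.48 against 26.4 ± 1.36 FPKM, log2 difference -0.42 ± 0.10), the one call among the 5 where 6.80% of all genes were called. It missed the threshold in 4 of 6 fits without 1 library, WT replicates 1 and 3 and RAP2 tKO replicates 2 and 3, at -0.37 to -0.42. On 40 kPa DDIT4 was called lower (-0.43 ± 0.11), where 9.05% of all genes were. That call was lost without RAP2 tKO replicate 3, the GC-skewed library (-0.29, though called again at that value when LATS dKO replicate 1 was left out too), without WT replicate 1 (-0.39) or 3 (-0.44), and after the GC correction (-0.24). The genotype comparisons share the WT libraries of their gel.

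**Figure D3:**
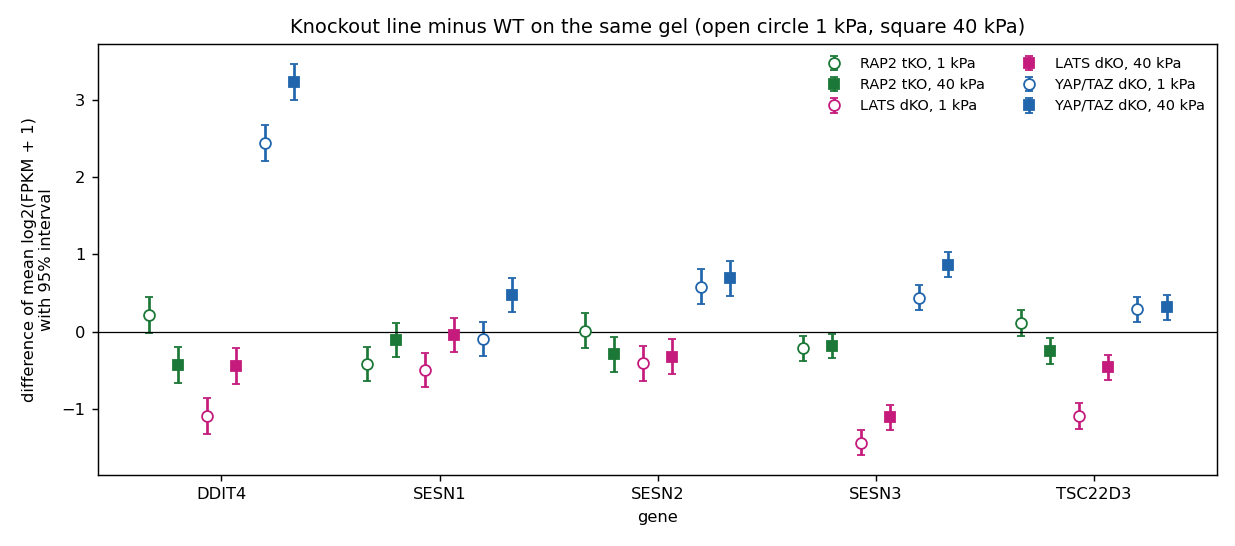
Difference of mean log2(FPKM + 1) between each knockout line and WT on the same gel, with 95% intervals from the limma fit; open circles are 1 kPa and squares 40 kPa. DDIT4 in YAP/TAZ dKO stands at 2.43 and 3.23, and SESN3 in LATS dKO at -1.44 and -1.11.

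Few other genes of the mTORC1 pathway were called between gels, as few genes were in all. The lists held the mTORC1 subunits, the TSC complex and RHEB, GATOR2, GATOR1 and KICSTOR, and the RAG GTPases with their lysosomal scaffold. They also held other amino acid sensors, upstream kinases and mTORC1 effectors. Of their 65 genes, 63 were tested. TSC2, of the TSC complex, was not among the symbols kept, and GATSL2, an amino acid sensor, failed the filter. Nothing is known here of either. None of the 63 was called by limma in WT or in YAP/TAZ dKO, where 0.986% and 0.347% of all genes were. In RAP2 tKO 2 were called lower (3.17% of the 63, against 3.87% of all genes) and in LATS dKO 1 (1.59% against 0.708%). An unadjusted p under 0.05 was found for 9 in WT, 12 in RAP2 tKO, 7 in LATS dKO and 5 in YAP/TAZ dKO. How many of all genes passed that threshold was not counted, so nothing is read from these numbers. The median log2 difference of the 63 was -0.04 in WT, -0.05 in both RAP2 tKO and LATS dKO, and -0.02 in YAP/TAZ dKO. Single genes had wider differences that were not called: ULK1, the kinase that starts autophagy, was at -0.43 in WT and -0.90 in RAP2 tKO, where its stiff libraries ranged from 5.20 to 19.96 FPKM. NPRL2, a GATOR1 subunit, was at 36.4 ± 1.88 FPKM on soft and 29.8 ± 2.67 on stiff gel in RAP2 tKO (log2 difference -0.28 ± 0.07, limma adjusted p = 0.0265) and at 35.9 ± 0.825 and 28.2 ± 1.31 in LATS dKO (-0.34 ± 0.07, adjusted p = 0.0317). Those calls depended on single libraries: leaving out 1 library ended that in RAP2 tKO in 4 of 6 fits (each 1 kPa library and 40 kPa replicate 1) and that in LATS dKO in 5 of 6 (all but 40 kPa replicate 3), and both were lost after scaling and GC correction. The other gene called in RAP2 tKO was GRB10, an adaptor that mTORC1 phosphorylates (-0.22 ± 0.06, limma adjusted p = 0.0415), named here because the count is small.

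**Figure D4:**
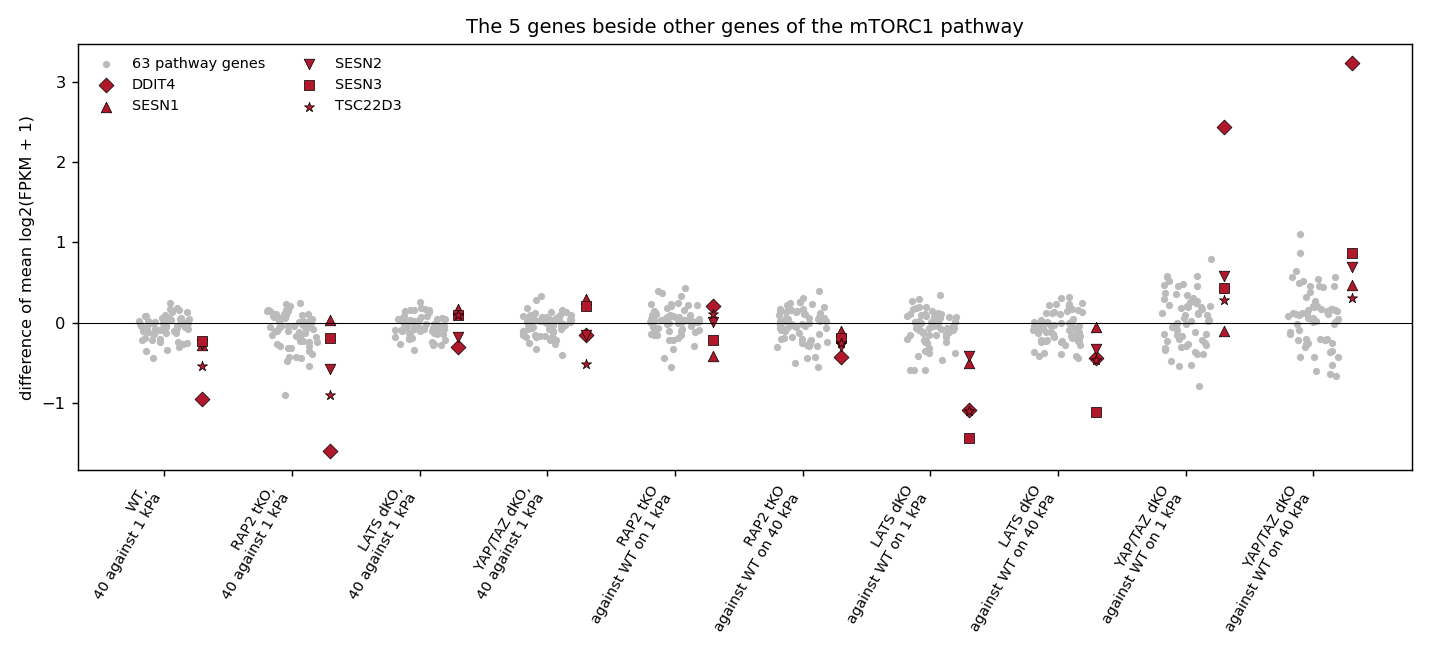
Difference of mean log2(FPKM + 1) for 63 other mTORC1 pathway genes (grey points, spread sideways for legibility) beside DDIT4, the sestrins and TSC22D3 (red symbols), for the 4 stiffness and 6 genotype comparisons. The grey points lie between -0.90 and 0.34 in the stiffness comparisons, and DDIT4 lies outside the grey range between gels in WT and RAP2 tKO, and against WT in LATS dKO on 1 kPa and in YAP/TAZ dKO on both gels.

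Between genotypes, calls among these 63 genes went in both directions, at shares near or below those of all genes. In YAP/TAZ dKO 12 were called higher and 13 lower than WT on 1 kPa (39.7% of the 63, against 37.9% of all genes), and 13 and 14 on 40 kPa (42.9% against 37.7%). In LATS dKO the counts were 2 and 6 on 1 kPa (12.7% against 21.8%), then 5 and 6 on 40 kPa (17.5% against 22.3%). In RAP2 tKO they were 3 and 1 (6.35% against 6.8%), then 3 and 3 (9.52% against 9.05%). PDCD4 and DEPTOR were picked out after their values were seen. PDCD4, an inhibitor of translation that is degraded downstream of mTORC1, was at 78.3 ± 3.64 FPKM in WT on 1 kPa, 51.7 ± 1.96 in LATS dKO and 137 ± 7.42 in YAP/TAZ dKO (limma adjusted p = 4.67e-05 and 6.39e-07), and on 40 kPa it differed from WT by -0.44 and 1.11. DEPTOR, an inhibitory mTORC1 subunit, was at 2.56 ± 0.435, 1.38 ± 0.420 and 3.95 ± 1.06 FPKM (adjusted p = 0.0115 and 0.0265). On 40 kPa DEPTOR was not called in LATS dKO (-0.38) and was higher in YAP/TAZ dKO (0.87).

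The relatives of the 5 genes were DDIT4L, TSC22D1, TSC22D2 and TSC22D4. DDIT4L, the paralog of DDIT4, had group means of 0.730 to 1.05 FPKM and was called in no comparison. TSC22D1 was higher in YAP/TAZ dKO on both gels (31.0 ± 2.77 against 16.8 ± 1.32 FPKM on 1 kPa, adjusted p = 1.05e-06), and TSC22D2 was lower (8.13 ± 0.992 against 13.8 ± 0.606 FPKM, adjusted p = 9.90e-06). TSC22D2 was also called higher in RAP2 tKO on both gels (0.35 and 0.39, limma adjusted p = 0.0312 and 0.0147). The shares of all genes called were 37.9% and 37.7% in YAP/TAZ dKO, and 6.80% and 9.05% in RAP2 tKO. None of the 4 relatives, TSC22D4 included, was called between gels in any genotype. All 4 are named after their values were seen.

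The targets of factors that act on these genes were counted from lists of the same kind. Calls are to be read against the share of all genes called between gels (0.986% in WT, 3.87% in RAP2 tKO, 0.708% in LATS dKO and 0.347% in YAP/TAZ dKO). No share of all genes was counted for an unadjusted p under 0.05. Of 10 ATF4 targets tested, 2 were called lower on stiff gel in WT (ASNS and NUPR1) and 6 in RAP2 tKO. None was called in LATS dKO or YAP/TAZ dKO. An unadjusted p under 0.05 (limma) held for 7 in WT, 9 in RAP2 tKO, 4 in LATS dKO and 7 in YAP/TAZ dKO. The medians were -0.23, -0.32, -0.14 and -0.26 in these genotypes. ASNS, asparagine synthetase, fell from 104 ± 7.69 to 71.2 ± 2.58 FPKM in WT (log2 difference -0.54 ± 0.09, limma adjusted p = 0.00571) and from 93.5 ± 5.75 to 69.7 ± 9.53 in RAP2 tKO (adjusted p = 0.0120, lost without RAP2 tKO on 1 kPa replicate 2). In YAP/TAZ dKO, where DDIT4 and SESN2 were highest, ASNS was lowest, at 53.2 ± 1.55 and 41.9 ± 1.19 FPKM. The list was mixed there: 1 of the 10 ATF4 targets was called higher and 2 lower than in WT on each gel. The shares of all genes called were 37.9% on 1 kPa and 37.7% on 40 kPa. NUPR1, a stress-induced chromatin protein, was at 1.505 ± 0.234 and 0.535 ± 0.0538 FPKM in WT (adjusted p = 0.0296, lost without any 1 of the 6 WT libraries) and at 1.92 ± 0.244 and 0.517 ± 0.279 in RAP2 tKO (adjusted p = 0.00157). DDIT3, which encodes the stress factor CHOP, fell in WT (24.7 ± 2.79 to 18.5 ± 1.12 FPKM, adjusted p = 0.0135, lost without WT on 1 kPa replicate 1 or on 40 kPa replicate 1 or 3) and in RAP2 tKO (26.3 ± 1.60 to 18.1 ± 1.28, adjusted p = 0.000914). ATF4 itself was at 271 ± 9.44 and 267 ± 2.45 FPKM in WT (adjusted p = 0.920) and fell in YAP/TAZ dKO, from 279 ± 4.22 to 229 ± 2.92 (adjusted p = 0.00241).

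Of 12 p53 targets tested, 2 fell on stiff gel in WT (BTG2 and DDB2) and 3 in RAP2 tKO, 0 were called in LATS dKO (limma, 0 with an unadjusted p under 0.05) and 1 rose in YAP/TAZ dKO. DDB2, a DNA damage recognition protein, fell from 48.8 ± 4.04 to 31.5 ± 2.93 FPKM in WT (limma adjusted p = 0.00217) and from 32.3 ± 2.35 to 21.0 ± 1.67 in RAP2 tKO (adjusted p = 0.00153). In YAP/TAZ dKO it rose from 19.9 ± 1.85 to 27.8 ± 2.45 (adjusted p = 0.0355). That rise missed the threshold with no filter and with the compared groups only (0.46 in both), and without each of 5 of the 6 YAP/TAZ dKO libraries, all but 40 kPa replicate 1 (0.39 to 0.50). Of the p53 targets among the sestrins, SESN1 was higher (0.30 ± 0.10) and SESN2 lower (-0.16 ± 0.11) on stiff gel in that line. Neither of these differences was called. BTG2, an antiproliferative gene, fell from 7.05 ± 0.288 to 5.53 ± 0.188 FPKM in WT (limma adjusted p = 0.0142, lost without WT on 1 kPa replicate 3 or on 40 kPa replicate 2 or 3). It was at 12.8 ± 0.201 and 13.0 ± 0.595 in YAP/TAZ dKO, the highest of the genotypes. Against WT, 3 p53 targets were higher and 3 lower in YAP/TAZ dKO on 1 kPa, and 4 and 2 on 40 kPa. In LATS dKO 1 was higher and 8 lower on 1 kPa, and 1 and 2 on 40 kPa. The shares of all genes called were 37.9% and 37.7% in YAP/TAZ dKO, and 21.8% and 22.3% in LATS dKO.

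Of 8 glucocorticoid receptor targets tested, 1 fell in WT, KLF9, a transcription factor gene, from 4.18 ± 0.170 to 3.13 ± 0.0679 FPKM (limma adjusted p = 0.00131). It also fell in RAP2 tKO (2.66 ± 0.0418 to 1.94 ± 0.0797, adjusted p = 0.000960), where 1 other target, DUSP1, rose. KLF9 was higher in YAP/TAZ dKO (5.91 ± 0.162 FPKM on 1 kPa, adjusted p = 1.59e-06) and lower in LATS dKO (2.93 ± 0.107, adjusted p = 5.58e-06) than in WT, and also lower in RAP2 tKO (-0.50, adjusted p = 2e-06), where TSC22D3 differed by 0.11. The whole list was mixed on 1 kPa: 4 were higher and 2 lower in YAP/TAZ dKO, and 1 higher (DUSP1) and 2 lower in LATS dKO, where 37.9% and 21.8% of all genes were called. The receptor gene itself, NR3C1, named after its values were seen, was lower in YAP/TAZ dKO than in WT (8.41 ± 1.01 against 16.2 ± 0.912 FPKM on 1 kPa, adjusted p = 8.26e-06). Of 11 FOXO targets tested, none was called between gels in WT, LATS dKO or YAP/TAZ dKO by limma (2, 0 and 1 with an unadjusted p under 0.05) and 1, CCNG2, fell in RAP2 tKO. Against WT, 1 was higher and 5 lower in LATS dKO on 1 kPa and 2 higher and 3 lower on 40 kPa, where 21.8% and 22.3% of all genes were called. The counts in YAP/TAZ dKO were 2 higher and 1 lower on 1 kPa and 4 and 1 on 40 kPa, where 37.9% and 37.7% of all genes were. Of 10 HIF targets tested, 1 was called between gels, VEGFA, lower in RAP2 tKO (-0.54 ± 0.09, limma adjusted p = 0.00219). CCNG2, DUSP1 and VEGFA fall outside the rule for named genes and were chosen after their values were seen. Of 12 transcription factors known to act on the 5 genes, 1 fell in WT (DDIT3), 3 in RAP2 tKO (DDIT3, ATF4 and CEBPB) and 1 in YAP/TAZ dKO (ATF4). The ATF4 call in RAP2 tKO was lost under 11 of 13 alternatives, among them leaving out any library of the line but the GC-skewed one. The lists overlap in what their genes respond to, and their part in the levels of the 5 genes was not tested.

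Among 4924 genes with a mean FPKM of at least 5 and a range of group means of at least 0.5 in log2, those most like each of the 5 over the 8 group means were as follows. For DDIT4 they were COL6A2 (Pearson r 0.9904), FBXL2 (0.9893) and SOX12 (0.9889). COL6A2, a collagen VI chain, was at 14.5 ± 1.48 FPKM in YAP/TAZ dKO and 6.55 ± 0.800 in WT on 1 kPa, but at 6.06 ± 0.403 in WT on 40 kPa, against 10.3 and 4.81 FPKM of DDIT4 there. For SESN2 they were FLJ37453 (0.9991), C17orf58 (0.9904) and KLHL17 (0.9897), and FLJ37453, a noncoding RNA gene, went from 8.50 ± 0.502 to 6.56 ± 0.0948 FPKM between gels in WT and stood at 13.6 ± 0.777 in YAP/TAZ dKO on 1 kPa. For SESN3 they were ECHDC2 (0.9947), PMAIP1 (0.9944) and KCNAB2 (0.9898). PMAIP1, which encodes the apoptosis protein NOXA, was at 113 ± 3.16 FPKM in WT, 62.4 ± 1.25 in LATS dKO and 145 ± 9.36 in YAP/TAZ dKO on 1 kPa. For SESN1 they were ZNF529 (0.965), NOL8 (0.9558) and MGEA5 (0.9352), and for TSC22D3 MGMT (0.9777), C12orf57 (0.9671) and SLC25A42 (0.9665). These r rest on 8 points from the same libraries and were the highest among 4924 genes, so they describe likeness only.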

How the data were processed

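STAR 2.4.2a, Cufflinks 2.2.1 and hg19 are named in the submitters' processing notes. Annotation release and strand setting were not given in the sources used here. Reads of a gene and of an overlapping antisense gene therefore cannot be told apart. The authors deposited 1 table a library of gene FPKM, estimated fragments scaled to transcript length and library depth, with a confidence interval and status for each of 60350 entries. Entries of a symbol were summed, and 92 symbols with a failed status in some library were left out. Depth was read from the width of the deposited intervals of genes with a single transcript, a slight underestimate.

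Tests used limma 3.58.1 in R 4.3.3 on log2(FPKM + 1), with 1 mean for each of the 8 groups fitted to the 24 libraries together (residual degrees of freedom 16) and a trend of the spread on the level. The filter was an FPKM of 1 or more in 3 or more libraries. The test was two-sided, with Benjamini-Hochberg adjustment over the 15828 genes tested in each of 13 comparisons, and a gene was called at an adjusted p below 0.05. The pseudocount makes differences of weakly expressed genes look smaller than they are. The fit was tested on simulated data. The replicates are biological by the design text, but what was repeated is not stated.

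The 5 genes and all gene lists were chosen with earlier results of these data known. Named from the lists was every gene called between gels in at least 2 genotypes (at most 12) and up to 2 a list called in WT; exceptions are stated. Likeness was Pearson's r over the 8 group means. Alternatives were a pseudocount of 0.1, no filter, scaling to a common median ratio, the replicate block, a fit without the 2 GC-skewed libraries, a fit on the compared groups only, and leaving out each library; a GC correction in 20 bins of transcript GC content (GENCODE v29) was added after seeing the data. Promoter windows came from RefSeq.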

Additional observations from a re-analysis of the deposited data

Results flagged for a closer look

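SESN1 and SESN3 had every 40 kPa library below every 1 kPa library in WT. In YAP/TAZ dKO every 40 kPa library was above every 1 kPa library. How many of all genes had this opposite order was not counted, so nothing is read from it. The stiffness response in YAP/TAZ dKO minus that in WT was 0.57 for SESN1 and 0.43 for SESN3 in log2(FPKM + 1). In the fit across all genes neither difference was called. Both were called in 3 of 19 alternatives: without both GC-skewed libraries, with the GC correction, and with the compared groups only. As both genes were chosen with these values known, these calls are no independent test.

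The stiffness response of DDB2, a p53 target, also differed between YAP/TAZ dKO and WT, by 1.08 ± 0.13 (SE; limma interaction, adjusted p = 0.000293). DDB2 was lower on 40 kPa in 3 of 3 WT libraries and higher in 3 of 3 YAP/TAZ dKO libraries than the mean on 1 kPa, and the call was kept in all 19 alternatives run.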

How the results depend on the processing

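Over 65 results for the 5 genes, 935 values were computed under the alternatives; 915 kept the direction, and the other 20 belonged to differences that were not called. Of 28 called differences, 16 were called under every alternative run, and of 37 that were not called, 10 were called under some. DDIT4 between gels in RAP2 tKO moved to -1.84 with a pseudocount of 0.1 and to -1.27 with the GC correction, and DDIT4 in YAP/TAZ dKO against WT on 40 kPa moved to 3.45 with a pseudocount of 0.1. With both GC-skewed libraries left out, SESN3 in RAP2 tKO (-0.28) and SESN2 (-0.27) and SESN3 (-0.22) in WT were called between gels. In the fit on the compared groups only, genes called between gels went from 156 to 45 in WT, 612 to 8 in RAP2 tKO and 112 to 2 in LATS dKO, and every named pathway gene's call in WT and RAP2 tKO was lost. The DDIT4 response in LATS dKO minus that in WT was called without both GC-skewed libraries (0.74) and with the GC correction (0.68). The cause of these moves was not tested.

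The number of mTORC1 pathway genes called between gels was 0 in WT, 2 in RAP2 tKO, 1 in LATS dKO and 0 in YAP/TAZ dKO. Without both GC-skewed libraries it was 3 in WT, 3 in LATS dKO and 6 in YAP/TAZ dKO. Calls over all 15828 genes in these lines rose from 156, 112 and 55 to 1006, 472 and 391 in that fit. With the GC correction the pathway count was 2, 1, 0 and 1 in the 4 genotypes. Of all 15828 genes, 503, 997, 84 and 114 were called there. In RAP2 tKO the pathway count was 1 without the filter, 0 after scaling and 0 with the compared groups only, and in LATS dKO 0 in the last 2. Calls over all genes in RAP2 tKO were 387 of 36358, 685 of 15828 and 8 of 15828 in these fits. In LATS dKO they were 49 and 2 in the last 2. Leaving out 1 library gave 0 to 4 in RAP2 tKO and 0 to 1 in LATS dKO. The replicate numbers showed no clear pairing of the libraries. Deviations of same-numbered libraries had r of -0.11 to 0.12, over 0.1 in 3 of 12 pairs. Those of differently numbered libraries had r of -0.15 to 0.18. With so few libraries a group, these r cannot exclude a pairing. With the replicate block 1 pathway gene was called in RAP2 tKO and 0 in LATS dKO, where 491 and 57 of all genes were called. DDIT4 in WT stayed at -0.95 with the block. The block ended 1 call among the 5 genes, that of TSC22D3 in the response of LATS dKO minus that of WT (0.63). Among the named list genes it ended the calls between gels of ATF4 in RAP2 tKO (-0.15), NPRL2 in LATS dKO (-0.34) and DDB2 in YAP/TAZ dKO (0.46). Depth limits TSC22D3 most.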
